A study of Homo sapiens with 12 samples.

Results

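Transcript levels of 36 genes of the cell cycle and of DNA replication were followed through 4 groups of cells made from the human embryonic stem cell line H9. The genes are a fixed set of well known S-phase genes (15) and G2 and mitosis genes (21), matched by symbol to the probes of an Illumina HT-12 bead array, with CDK1 also accepted under its older name CDC2. All 36 had probes, 50 in all, and 35 passed the filter on detection, 14 of 15 S-phase genes and 21 of 21 G2 and mitosis genes, among 11280 genes tested. The gene left out was CCNE2, whose probe was detected on 0 of 12 arrays.

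The groups held 3 arrays each, numbered as biological replicates. NPC-NC cells were induced without feeders, sorted at day 18 as HNK1+/p75+ and labelled neural crest. MS5-NC cells were induced on MS5 feeder cells, a mouse stromal line, and sorted at day 35 with the same HNK1+/p75+ gate. The sox10-NC cells came from H9 carrying a sox10::GFP reporter, were induced with wnt and were sorted as GFP+ at day 11. LSB cells were unsorted neuroepithelial cells at day 11. All 12 arrays come from derivatives of a single stem cell line, and induction, sort and day change together between most groups, so their parts in a difference cannot be told apart.

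In dividing cells, E2F factors switch on the genes for DNA synthesis late in G1, and the hexameric MCM helicase is loaded on origins by ORC, CDC6 and CDT1 while geminin blocks a second loading. Cyclin A and cyclin B with CDK1 then carry the cell through G2 into mitosis, where Aurora and Polo kinases, kinesins, kinetochore proteins and the spindle checkpoint move the chromosomes. Transcripts of the mitotic group peak in G2 and decline after division, and both groups are low in cells that have left the cycle, such as neurons. In RNA from many cells, fewer cycling cells and less RNA per cell cannot be told apart.

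The proximal promoters of the genes carry the sequence elements of these 2 waves, and some are shown because the S-phase and the mitotic genes are kept apart in all that follows. RefSeq promoters (GRCh38.p14, 250 bases before to 50 after the start) were matched for 29 of the 36 genes, 12 S-phase and 17 G2 and mitosis genes. An E2F site was taken as TTTGGCGC, TTTCCCGC, TTTCGCGC or TTTGCCGC on either strand; 8 of 12 S-phase promoters (66.7%) and 2 of 17 mitotic promoters (11.8%) held it, against 3.32% of all 35116 promoters in the table. The cell cycle genes homology region, or CHR, was taken as TTTGAA on either strand and was found in 1 of 12 S-phase promoters (8.33%) and 10 of 17 mitotic promoters (58.8%), against 15.2% of all promoters. A CCAAT box (CCAAT on either strand) was in 10 of 12 (83.3%) and 15 of 17 (88.2%), against 34.6% of all. A match describes the letters only. In the 100 bases before the start of 4 S-phase genes, capitals mark the E2F sites:
E2F1, chr20:33686386-33686485, minus strand: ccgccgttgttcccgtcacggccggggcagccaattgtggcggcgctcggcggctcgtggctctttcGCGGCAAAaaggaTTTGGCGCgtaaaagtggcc
GMNN, chr6:24775313-24775412, plus strand: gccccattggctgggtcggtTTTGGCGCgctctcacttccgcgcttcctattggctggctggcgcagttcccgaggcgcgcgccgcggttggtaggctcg
GINS2, chr16:85688955-85689054, minus strand: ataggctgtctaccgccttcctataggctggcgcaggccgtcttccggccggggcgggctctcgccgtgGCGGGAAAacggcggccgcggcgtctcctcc
TYMS, chr18:657553-657652, plus strand: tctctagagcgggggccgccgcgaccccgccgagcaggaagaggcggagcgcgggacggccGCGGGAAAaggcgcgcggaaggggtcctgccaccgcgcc
In the same stretch of 3 mitotic genes, capitals mark the CHR, which MKI67, the gene of the Ki-67 proliferation antigen, carries in 2 copies:
BUB1B, chr15:40160969-40161068, plus strand: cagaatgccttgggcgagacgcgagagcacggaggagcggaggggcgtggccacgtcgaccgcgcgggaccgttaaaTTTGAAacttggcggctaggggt
CCNB2, chr15:59105046-59105145, plus strand: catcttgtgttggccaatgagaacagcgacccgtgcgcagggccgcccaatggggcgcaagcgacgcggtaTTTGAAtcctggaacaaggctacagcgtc
MKI67, chr10:128126424-128126523, minus strand: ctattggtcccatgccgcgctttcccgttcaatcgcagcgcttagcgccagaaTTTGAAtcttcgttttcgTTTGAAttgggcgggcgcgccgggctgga

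Each array detected 14616 to 17101 of 47322 probes at a detection p under 0.01, and a bead type had a median of 18 to 22 beads. The labelled identities were set against marker genes. SOX10, TFAP2B and FOXD3, which define neural crest, were below background on every NPC-NC, MS5-NC and LSB array, whereas sox10-NC detected 10 of 10 crest markers on all its arrays. NPC-NC and MS5-NC detected 3 and 2 of these 10 on all arrays, and 1 of the 10 was higher than LSB in each: SOX9, a factor of crest and of neural progenitors, by 2.12 ± 0.30 in NPC-NC and 2.22 ± 0.30 in MS5-NC (adjusted p 4.87e-05 and 1.95e-05). NGFR, which encodes the sorted p75 receptor, was detected on 2 of 3 NPC-NC arrays, 0 of 3 MS5-NC arrays and 3 of 3 sox10-NC arrays, against 1 of 3 in LSB, so the transcript of the gated protein was not well above background in MS5-NC. The defining crest markers thus go against the neural crest label of NPC-NC and MS5-NC, and the groups are called here by their names, with the gate as the labels give it. Both detected 10 of 11 neuroepithelial progenitor markers on all arrays. The summed normalised signal of 14 postmitotic neuron markers was 14374 to 17159 in NPC-NC, 17652 to 22334 in MS5-NC and 3628 to 9467 in sox10-NC, against 3163 to 3573 in LSB, and DCX, a microtubule protein of young neurons, had log2 levels of 10.74 ± 0.33, 11.32 ± 0.27, 9.20 ± 0.49 and 7.75 ± 0.45 in that order (SD, n = 3). Of these 14 markers, 12 were higher than LSB in NPC-NC, 13 in MS5-NC and 9 in sox10-NC, where 2 were lower. These marker levels count no cells, and the part of any non-dividing cells in the cell cycle results was not tested.

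A single library bears on much of what follows. On NPC-NC array 1, 21 of 21 G2 and mitosis genes were at their highest of the 3 NPC-NC arrays, and 12 of 14 S-phase genes at their lowest. Over all genes tested this array was the highest of its group for 35.2% and the lowest for 37.4%. The mean of the mitotic genes relative to LSB was 0.16 on array 1 on the log2 scale, against -0.83 and -0.62 on arrays 2 and 3, and that of the S-phase genes was -0.64, against 0.03 and -0.07. The other genes of the same phases did likewise: 38 of 41 further mitotic genes were highest and 26 of 34 further S-phase genes lowest on array 1. Its neuron marker sum of 16392 lay between those of arrays 2 and 3, 14374 and 17159. Across genes, array 1 correlated at r = 0.956 to 0.959 with the other NPC-NC arrays, at 0.960 to 0.970 with the MS5-NC arrays and at 0.883 to 0.905 with the LSB arrays, which describes profiles and carries no test. Counts, medians and calls of NPC-NC are given with and without array 1. It stands out by these same genes. Leaving it out therefore lowers the mitotic means of NPC-NC and raises most of its S-phase means by construction. Values without it show how far a result rests on this array and are not separate evidence of a change. On sox10-NC array 1 the S-phase mean was also lower than on arrays 2 and 3, at -0.44, against -0.07 and -0.04.

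**Figure D1:**
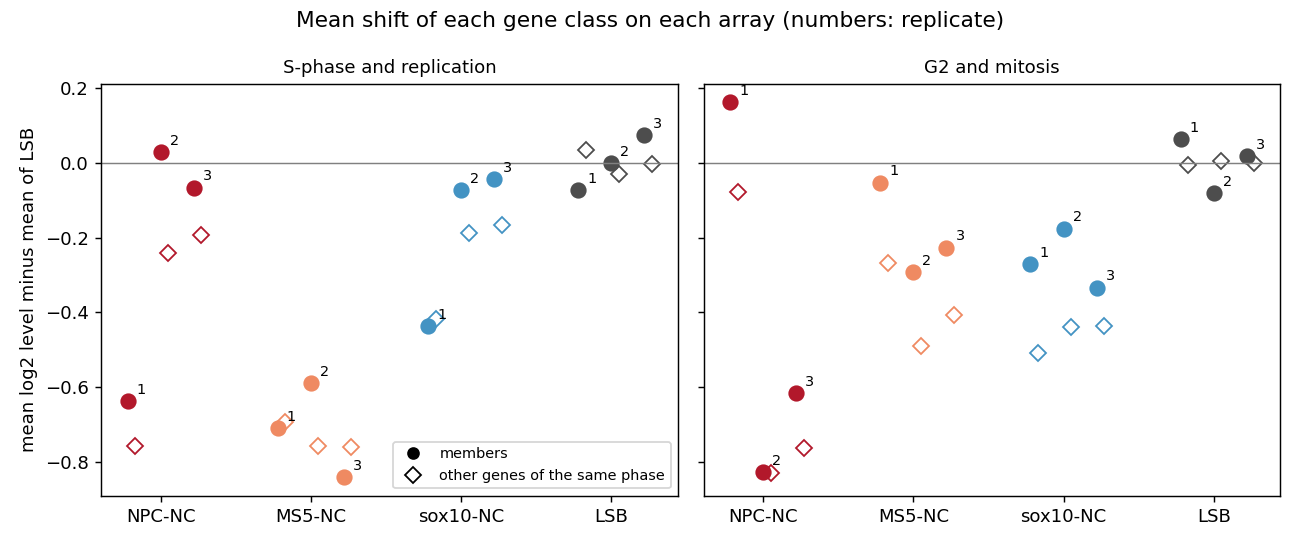
Mean log2 level of the S-phase genes (left panel) and of the G2 and mitosis genes (right panel) on each array, minus the LSB mean, with filled circles for the members and open diamonds for other genes of the same phase, and numbers giving the replicate. The 3 MS5-NC arrays lie between -0.59 and -0.84 for S phase, and NPC-NC array 1 lies apart from arrays 2 and 3 in both panels.

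The fit was a linear model over all 12 arrays on log2 levels (limma, moderated test), with Benjamini-Hochberg adjustment over 11280 genes, and a gene was called changed at an adjusted p under 0.05. In NPC-NC against LSB, 7 of 35 members were lower and 0 higher (20% of members, background 28.7% of all genes in either direction, with 11.9% lower and 16.8% higher). In MS5-NC, 9 were lower and 0 higher (25.7%, background 38.7%, with 17.6% lower and 21.1% higher). In sox10-NC, 5 were lower and 1 higher (17.1%, background 33.6%, with 16.7% lower and 16.9% higher). With a change of at least 2-fold also required, 0, 2 and 3 members were called in NPC-NC, MS5-NC and sox10-NC (background 15%, 20.9% and 18.4%). In either direction the set of 35 was thus called no more often than genes at large. Counted as lower alone, 20% of members in NPC-NC and 25.7% in MS5-NC stood above the 11.9% and 17.6% of all genes. In sox10-NC the 5 of 35 lower did not exceed the 16.7% of all genes. The member calls in NPC-NC and MS5-NC fell mainly on different phases. In MS5-NC, 8 of 14 S-phase genes were lower (57.1%) and 1 of 21 mitotic genes (4.76%). In NPC-NC, 1 of 14 S-phase genes (7.14%) and 6 of 21 mitotic genes (28.6%) were lower. The 3 comparisons share the same LSB arrays, so their results are not independent of each other, and the difference between phases was not itself tested.

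**Figure D2:**
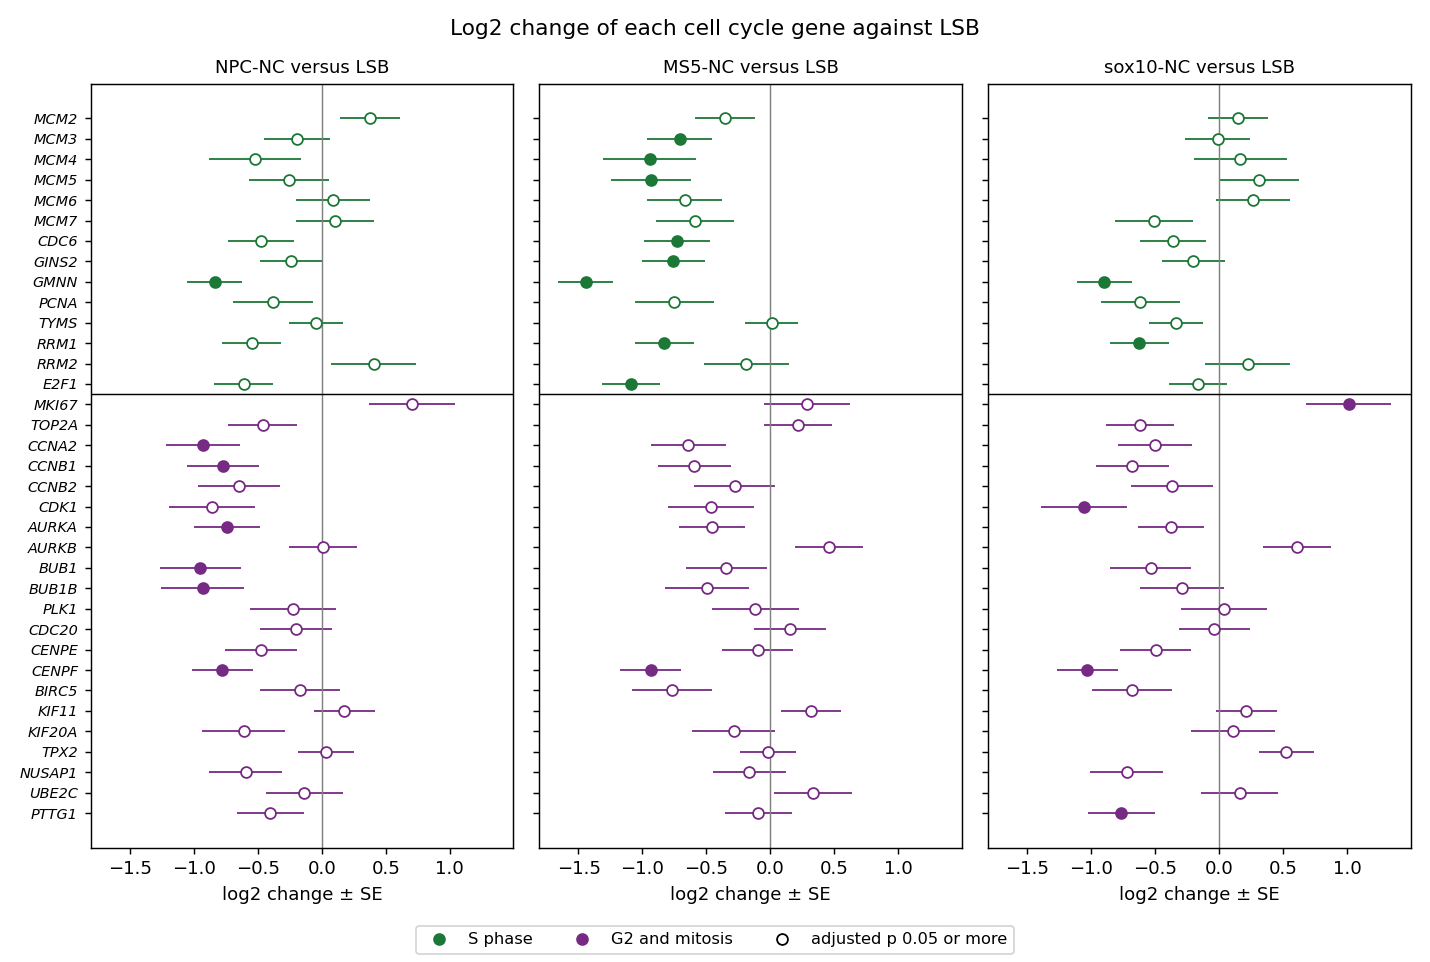
Log2 change of each of the 35 genes against LSB, with its standard error, in NPC-NC, MS5-NC and sox10-NC; filled points have an adjusted p under 0.05. In MS5-NC 8 of the 14 S-phase points (green) are filled on the lower side, whereas in NPC-NC 6 of the 21 G2 and mitosis points (purple) are.

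The replication genes were lowest in the day 35 MS5-NC cells. For 13 of 14 S-phase genes the mean was lowest of the 4 groups in MS5-NC, with TYMS the exception, and 11 of 14 had all MS5-NC arrays under all LSB arrays (background 25.5% of genes). Both counts, and the 8 S-phase genes called lower in MS5-NC, include CDC6, which no MS5-NC array detected. Their median log2 change against LSB was -0.74 in MS5-NC, against -0.25 in NPC-NC and -0.18 in sox10-NC, with the median of all genes within 0.02 of 0 each time. Without NPC-NC array 1 the NPC-NC median was -0.003, with 7 genes below 0 and 7 above, and 1 of 14 was called lower, as with it. The sox10-NC median lay between -0.26 and -0.07 over the alternatives, at -0.07 without LSB array 1 and -0.14 without sox10-NC array 1. The highest mean was in NPC-NC for 3 of these genes, in MS5-NC for 1, in sox10-NC for 3 and in LSB for 7.

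E2F1, the transcription factor whose targets include much of this group, had log2 levels of 5.49, 5.38 and 5.43 in NPC-NC, 5.31, 4.91 and 4.64 in MS5-NC and 5.71, 6.01 and 5.92 in sox10-NC, against 6.34, 5.94 and 5.85 in LSB. The NPC-NC and MS5-NC arrays lay wholly under LSB, and only 1 of 3 MS5-NC arrays detected the probe. The change against LSB was -1.09 ± 0.23 in MS5-NC (SE, adjusted p 0.00125, limma), and it lay between -1.45 and -0.42 over 22 alternatives, all of which called it. In NPC-NC it was -0.61 ± 0.23 and missed the threshold (adjusted p 0.0540), as it did without array 1, at -0.64 ± 0.26 (adjusted p 0.0819). In sox10-NC it was -0.16 ± 0.23 (adjusted p 0.623), and MS5-NC was lower than sox10-NC by -0.93 ± 0.23 (adjusted p 0.00512).

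Geminin, GMNN, which binds CDT1 and prevents a second round of origin licensing, was the single S-phase gene called lower than LSB in all 3 groups. Its log2 levels were 8.74, 8.83 and 8.98 in NPC-NC, 7.98, 8.26 and 8.50 in MS5-NC and 8.82, 8.82 and 8.74 in sox10-NC, against 9.81, 9.79 and 9.47 in LSB. No array of the other groups reached the lowest LSB array. The changes were -0.84 ± 0.21 in NPC-NC (adjusted p 0.00732; -0.79 ± 0.24 and 0.0244 without array 1), -1.44 ± 0.21 in MS5-NC, 2.72-fold lower (adjusted p 5.73e-05), and -0.90 ± 0.21 in sox10-NC (adjusted p 0.00368). Its partner CDT1, from the wider S-phase list, was higher than LSB, by 0.81 ± 0.24 in NPC-NC (adjusted p 0.017) and 1.47 ± 0.24 in sox10-NC (adjusted p 0.00013), and stood at 0.09 ± 0.24 in MS5-NC (adjusted p 0.809), the group in which GMNN had its largest change.

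All 6 MCM helicase subunits had lower means in MS5-NC than in LSB. They were called lower in MS5-NC for MCM3 (-0.71 ± 0.26, adjusted p 0.0360), MCM4 (-0.94 ± 0.36, 0.0466) and MCM5 (-0.93 ± 0.31, 0.0258), while MCM2, MCM6 and MCM7, at -0.35, -0.67 and -0.59, missed the threshold. MCM5 had 7.69, 8.47 and 8.50 in NPC-NC, 7.71, 7.88 and 7.04 in MS5-NC and 8.32, 9.04 and 9.01 in sox10-NC, against 7.91, 8.62 and 8.90 in LSB. All MS5-NC arrays lay under all LSB arrays, LSB itself spread widely, and array 1 was the lowest in NPC-NC, sox10-NC and LSB. Over 22 alternatives the MS5-NC call against LSB was lost in 9 for MCM4, 7 for MCM3 and 5 for MCM5. GINS2, a subunit of the GINS complex that activates the helicase, was lower in MS5-NC by -0.76 ± 0.25 (adjusted p 0.0206). CDC6, the loader of the helicase, was lower in MS5-NC with an adjusted p of 0.0313, but 0 of 3 MS5-NC arrays and 2 of 3 LSB arrays detected it. Its measured means were 4.48 in MS5-NC and 5.21 in LSB, and counted from the lowest detected signal of each array the level was at least 1.03-fold lower. The CDC6 call was lost in 6 of the 18 alternatives that tested it, and the GINS2 call in 4 of 22.

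MCM2 had log2 levels of 8.94, 9.32 and 9.16 in NPC-NC, 8.44, 8.42 and 8.35 in MS5-NC and 8.71, 8.60 and 9.42 in sox10-NC, against 8.66, 8.79 and 8.83 in LSB. NPC-NC lay above LSB and MS5-NC under it without overlap, but neither passed (adjusted p 0.244 and 0.250). Against sox10-NC, MS5-NC was lower for MCM3 (-0.70), MCM4 (-1.11), MCM5 (-1.25 ± 0.31, adjusted p 0.0058) and MCM6 (-0.94 ± 0.29, adjusted p 0.0210), so that 5 of 14 S-phase genes were called lower, E2F1 included (35.7%, background 12.9% lower and 29.4% in either direction), and 2 members passed with at least 2-fold (background 17.3%). MCM6 had 9.91, 10.21 and 10.35 in MS5-NC, against 10.61, 11.34 and 11.33 in sox10-NC, with no overlap. The 6 calls over all members in this comparison numbered 2 without MS5-NC array 1, 3 without sox10-NC array 2 and 3 without sox10-NC array 3. Over 22 alternatives the call against sox10-NC was lost in 13 for MCM3, 5 for MCM6, 4 for MCM4, 1 for E2F1 and 0 for MCM5.

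Among the genes of nucleotide supply and fork progression, RRM1 was the one called. RRM1, the large subunit of ribonucleotide reductase, had 10.63, 10.96 and 11.05 in NPC-NC, 10.84, 10.63 and 10.33 in MS5-NC and 10.65, 10.82 and 10.95 in sox10-NC, against 11.12, 11.48 and 11.69 in LSB. Every array outside LSB lay under the lowest LSB array. It was lower by -0.83 ± 0.23 in MS5-NC (adjusted p 0.00903) and by -0.62 ± 0.23 in sox10-NC (adjusted p 0.0454), and the -0.55 of NPC-NC missed the threshold (0.0827), as did its -0.43 without array 1 (0.236). RRM2, the small subunit, had changes of 0.41 in NPC-NC (0.75 without array 1), -0.19 in MS5-NC and 0.22 in sox10-NC, none called. The RRM1 call was lost in 11 of 22 alternatives in sox10-NC and in 1 of 22 in MS5-NC.

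PCNA, the sliding clamp of the replication fork, had 10.12, 10.89 and 10.90 in NPC-NC, 10.08, 10.45 and 10.29 in MS5-NC and 9.57, 10.91 and 10.74 in sox10-NC, against 11.17, 11.09 and 10.80 in LSB. Array 1 of NPC-NC and of sox10-NC lay far under its group, and MS5-NC alone was wholly under LSB, at -0.75 ± 0.31 (adjusted p 0.0648). These values are from the brightest PCNA probe, with changes of -0.38, -0.75 and -0.61 in NPC-NC, MS5-NC and sox10-NC. A second detected probe had larger changes of -0.94, -1.09 and -1.14, and there the lowest mean was in sox10-NC and not in MS5-NC. TYMS, thymidylate synthase, had 11.16, 11.42 and 11.10 in NPC-NC, 11.24, 11.21 and 11.40 in MS5-NC and 10.87, 11.14 and 10.80 in sox10-NC, against 11.29, 11.13 and 11.40 in LSB. The groups overlapped, except that sox10-NC lay under MS5-NC, and no TYMS comparison passed. CCNE2, cyclin E2, stayed between 4.24 and 4.56 on all 12 arrays, not above background, and was not tested.

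**Figure D3:**
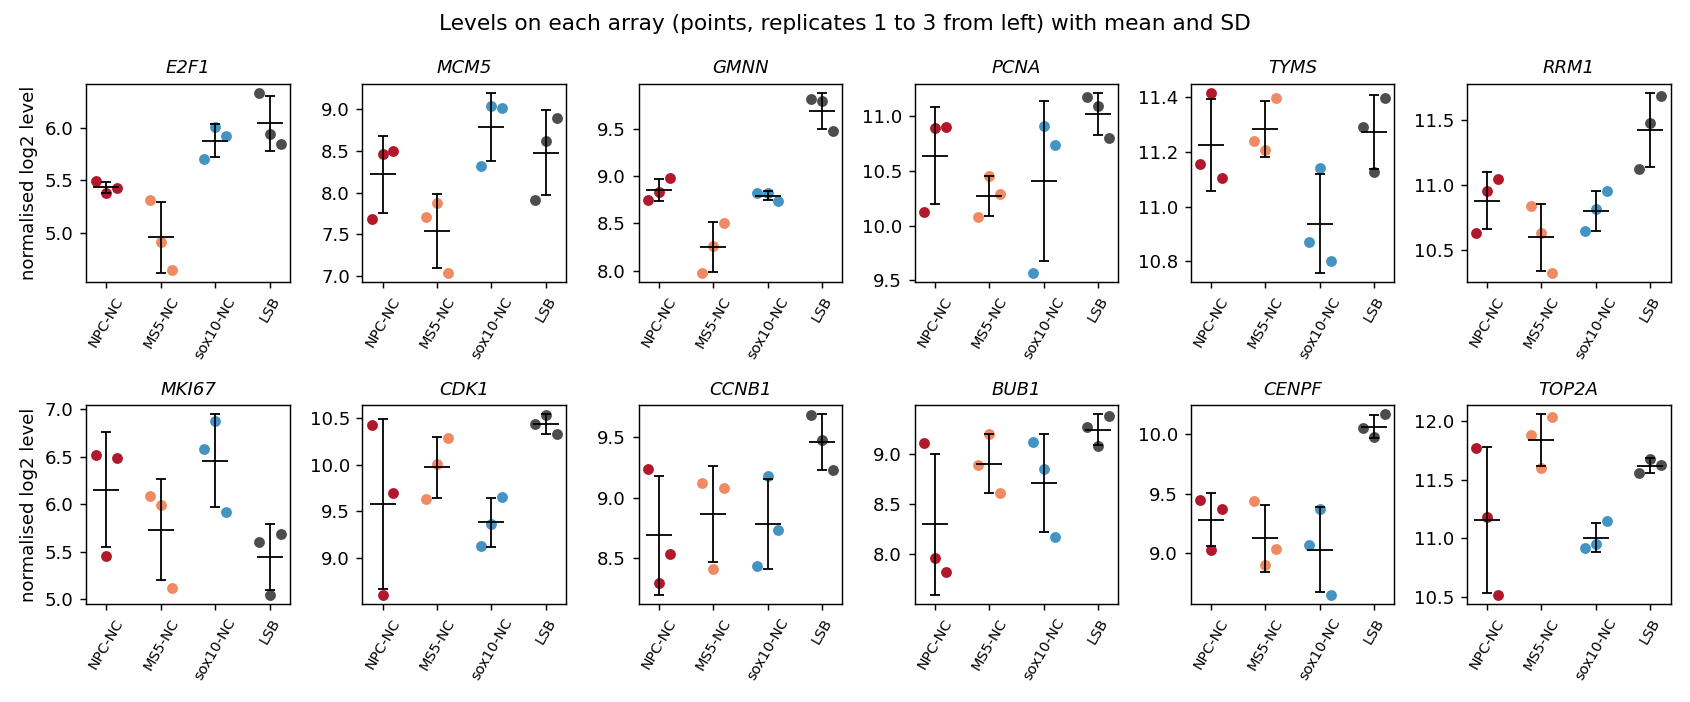
Normalised log2 level of 6 S-phase genes (top row) and 6 G2 and mitosis genes (bottom row) on each array (points, replicates from left to right) with the group mean and SD; each panel has its own axis. GMNN and RRM1 lie lower on every array outside LSB, and MKI67 is the panel in which LSB has the lowest mean.

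Among the mitotic genes, the highest mean was in NPC-NC for 0 of 21, in MS5-NC for 4, in sox10-NC for 5 and in LSB for 12, and the lowest mean was in NPC-NC for 10. Median changes against LSB were -0.48 in NPC-NC, -0.17 in MS5-NC and -0.37 in sox10-NC. Without NPC-NC array 1 the NPC-NC median was -0.82, and 11 of 21 mitotic genes were lower (52.4%, background 10.1% lower) in place of 6. Array 1 had the highest NPC-NC level of all 21 genes, so leaving it out lowers their NPC-NC means by construction. The rise in calls is thus no separate evidence of a decrease. The 3 mitotic calls gained besides cyclin B2 and CDK1 were TOP2A (-0.77 ± 0.25, adjusted p 0.0354), CENPE (-0.84 ± 0.25, 0.0218) and KIF20A (-0.99 ± 0.31, 0.0283). The 7 calls of NPC-NC over both phases became 12 without its array 1, 2 without array 2, 2 without array 3, and 1, 2 and 2 without LSB arrays 1, 2 and 3. The number of mitotic genes called lower, 6 with all arrays, was 0 without NPC-NC array 2 and 1 without NPC-NC array 3. Without NPC-NC array 2, 1 mitotic gene was called higher. Without LSB arrays 1, 2 and 3 the number called lower was 0, 1 and 1.

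CENPF, a kinetochore protein that accumulates in G2, was the mitotic gene called lower in all 3 groups. It had 9.45, 9.03 and 9.37 in NPC-NC, 9.44, 8.90 and 9.03 in MS5-NC and 9.07, 9.37 and 8.66 in sox10-NC, against 10.05, 9.97 and 10.16 in LSB. The LSB arrays lay above all others. The changes were -0.78 ± 0.24 in NPC-NC (adjusted p 0.0207), -0.94 ± 0.24 in MS5-NC (adjusted p 0.00505) and -1.03 ± 0.24 in sox10-NC (adjusted p 0.00288), and -0.86 ± 0.27 in NPC-NC without array 1.

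CDK1, the kinase that starts mitosis, had 10.42, 8.60 and 9.70 in NPC-NC, 9.63, 10.001 and 10.28 in MS5-NC and 9.13, 9.36 and 9.65 in sox10-NC, against 10.44, 10.54 and 10.33 in LSB. NPC-NC array 1 sat within the LSB range, and sox10-NC and MS5-NC lay under LSB throughout. It was lower in sox10-NC by -1.05 ± 0.34, 2.08-fold (adjusted p 0.0220), while NPC-NC, at -0.86 ± 0.34, missed the threshold (0.0629) and without array 1 was at -1.29 ± 0.31 (adjusted p 0.00573).

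CCNA2, cyclin A2, had 9.50, 8.33 and 8.24 in NPC-NC, 8.88, 8.89 and 9.17 in MS5-NC and 8.99, 8.88 and 9.50 in sox10-NC, against 9.75, 9.63 and 9.48 in LSB. Its change in NPC-NC was -0.93 ± 0.29 (adjusted p 0.0232), and -1.34 ± 0.25 without array 1 (adjusted p 0.000945). CCNB1, cyclin B1, had 9.24, 8.29 and 8.53 in NPC-NC, 9.12, 8.41 and 9.08 in MS5-NC and 8.44, 9.18 and 8.73 in sox10-NC, against 9.68, 9.47 and 9.23 in LSB. NPC-NC array 1 again stood above its group, and NPC-NC was lower by -0.77 ± 0.28 (adjusted p 0.0495), with -1.05 ± 0.29 without it (adjusted p 0.0131). The CCNB1 call was lost in 12 of 22 alternatives, among them the authors' values, the replicate block and leaving out any LSB array, with adjusted p up to 0.198, and its change lay between -1.05 and -0.58. CCNB2, cyclin B2, passed without that array, at -1.16 ± 0.24 (adjusted p 0.00165), where all arrays gave -0.65 (adjusted p 0.140).

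Of the spindle checkpoint kinases, BUB1 had 9.11, 7.96 and 7.82 in NPC-NC, 8.90, 9.20 and 8.61 in MS5-NC and 9.12, 8.85 and 8.17 in sox10-NC, against 9.28, 9.09 and 9.39 in LSB. It was lower in NPC-NC by -0.95 ± 0.32 (adjusted p 0.0313), and by -1.36 ± 0.29 without array 1 (adjusted p 0.00227). BUB1B was lower in NPC-NC by -0.93 ± 0.33 (adjusted p 0.0398) and AURKA, the Aurora kinase of the spindle poles, by -0.74 ± 0.26 (adjusted p 0.0388), and without array 1 the changes were -1.17 ± 0.35 (adjusted p 0.0211) and -1.03 ± 0.25 (adjusted p 0.00653). Over the 22 alternatives the NPC-NC call was lost in 9 for AURKA, 8 for BUB1B, 7 for BUB1, 6 for CCNA2 and 4 for CENPF. AURKB, the Aurora kinase of the chromosomal passenger complex, was called in none of the 3 groups: it had changes of 0.01 in NPC-NC (-0.27 without array 1), 0.46 in MS5-NC and 0.61 in sox10-NC (adjusted p 0.988, 0.187 and 0.0863).

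Securin, PTTG1, which holds back the separation of sister chromatids, was lower in sox10-NC by -0.76 ± 0.26 (adjusted p 0.0317). PLK1, the Polo kinase, CDC20, an activator of the anaphase promoting complex, and the spindle kinesin KIF11 had changes between -0.23 and 0.32 in all 3 groups, none called. TPX2, an activator of AURKA at the spindle, had 0.53 ± 0.22 in sox10-NC (adjusted p 0.0705) and UBE2C, a ubiquitin conjugating enzyme that works with that complex, 0.33 ± 0.30 in MS5-NC (adjusted p 0.408). BIRC5, CENPE, KIF20A and NUSAP1 were called in none of the 3 comparisons with all arrays in the fit.

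MKI67 and TOP2A are widely read as proliferation markers. MKI67 had 6.52, 5.45 and 6.48 in NPC-NC, 6.09, 5.99 and 5.12 in MS5-NC and 6.58, 6.87 and 5.92 in sox10-NC, against 5.60, 5.05 and 5.68 in LSB. These levels lie near background: the probe was detected on 3, 2 and 3 arrays of these groups and on 2 of 3 LSB arrays. MKI67 was the 1 member called higher than LSB, in sox10-NC, by 1.01 ± 0.33 (adjusted p 0.0263), with no overlap. This call was lost in 5 of 22 alternatives (no filter on detection, array weights, and without LSB array 2, sox10-NC array 1 or sox10-NC array 2), with adjusted p up to 0.127, and the change lay between 0.46 and 1.39. TOP2A, topoisomerase II alpha, which untangles sister chromatids, had 11.77, 11.18 and 10.52 in NPC-NC, 11.88, 11.60 and 12.03 in MS5-NC and 10.91, 10.95 and 11.14 in sox10-NC, against 11.55, 11.68 and 11.63 in LSB. The sox10-NC arrays lay under all LSB arrays, at -0.62 ± 0.27 (adjusted p 0.0843), and MS5-NC was higher than sox10-NC by 0.83 ± 0.27 (adjusted p 0.0243), the 1 member called higher in that comparison (background 16.5% higher).

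**Figure D4:**
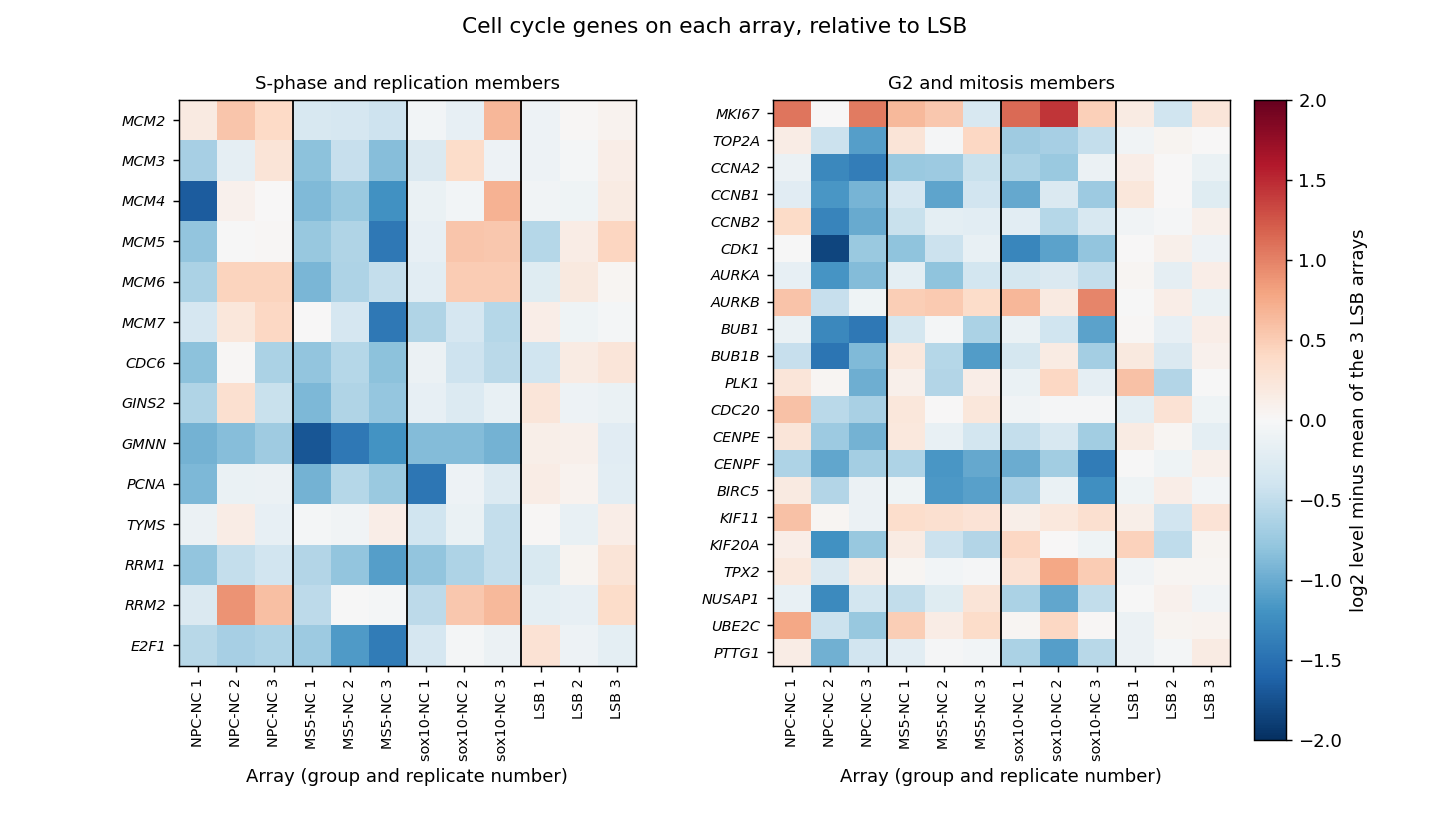
Each cell is the log2 level of a gene on an array minus the mean of the 3 LSB arrays (red higher, blue lower), for the S-phase genes (left panel) and the G2 and mitosis genes (right panel). The MS5-NC columns are blue over most of the S-phase rows, NPC-NC arrays 2 and 3 over most of the mitotic rows, and NPC-NC array 1 shows the opposite pairing.

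The groups labelled HNK1+/p75+, NPC-NC at day 18 and MS5-NC at day 35, were set against each other directly. In this comparison 0 of 35 members were called by limma (0.0798% of all genes were, 9 genes, each of at least 2-fold), with 7 members at an unadjusted p under 0.05, against 9.87% of all genes. S-phase genes had higher means in NPC-NC for 13 of 14, with a median of 0.52, and 3 of 14 did not overlap (background 6.96% higher and 6.96% lower). Mitotic genes had lower means for 17 of 21 (background 48.8% below 0), with a median of -0.32, and 0 of 21 did not overlap. Without NPC-NC array 1 the medians were 0.72 and -0.67, still with 0 calls, and 22 of 35 members had an unadjusted p under 0.05, against 14.8% of all genes in that fit. The smallest adjusted p values were then 0.0653 for MCM6, at 1.11, and 0.0747 for TOP2A, at -0.98. Leaving out array 1 moves both medians away from 0 by construction, so the 22 members are no separate evidence of a difference.

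In NPC-NC against sox10-NC, 0 of 35 members were called by limma (background 22.3%, with 8.76% lower, and 14% at 2-fold or more), with 3 at an unadjusted p under 0.05, all mitotic, against 33.9% of all genes. Medians were 0.01 for S phase and -0.26 for mitosis. Without NPC-NC array 1, 5 mitotic genes were lower in NPC-NC (background 8.12% lower): CCNA2 (-0.83), CCNB2 (-0.80), AURKB (-0.88), UBE2C (-0.75) and KIF20A, a kinesin of cytokinesis (-1.10 ± 0.31, adjusted p 0.0177). Leaving out NPC-NC array 1 lowers the NPC-NC means of mitotic genes by construction, so these 5 calls are no separate evidence of a difference. Leaving out sox10-NC array 2 gave 1 call.

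Of 50 probes, 13 detected ones were second probes of 12 member genes, and each of the calls that had such a probe (AURKA in NPC-NC, MCM3 and MCM4 in both MS5-NC comparisons, CDK1 and PTTG1 in sox10-NC) had the same direction on it. In MS5-NC against LSB, 11 of 13 had the direction of the first probe; the probes of UBE2C (0.33 and -0.34) and of PTTG1 disagreed in sign.

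The wider machinery was read from 4 further lists. Of 34 other S-phase and replication genes tested (43 listed), 20 were lower and 0 higher in MS5-NC against LSB, 9 lower and 1 higher in NPC-NC, and 8 lower and 3 higher in sox10-NC, with medians of -0.78, -0.34 and -0.32. In either direction 58.8%, 29.4% and 32.4% of the list were called in that order, against 38.7%, 28.7% and 33.6% of all genes. Over all genes 17.6%, 11.9% and 16.7% were lower. In NPC-NC and sox10-NC the list was thus called, in either direction, about as often as genes at large. Counted as lower alone, it had 9 of 34 in NPC-NC, against 11.9% of all genes, and 8 of 34 in sox10-NC, against 16.7%. Both of these shares were above those of all genes. RFC3, a subunit of the clamp loader, was lower by -2.13 ± 0.25 in MS5-NC (adjusted p 4.3e-06) and -1.28 ± 0.25 in NPC-NC (adjusted p 0.00099). DSCC1, of the alternative clamp loader, HELLS, a chromatin remodeller, and BLM, a helicase, were lower in MS5-NC by -1.40, -1.35 and -1.22, and PRIM1, the DNA primase subunit, by -1.17 in NPC-NC and -1.08 in sox10-NC. In sox10-NC, CDT1 and UHRF1, a partner of maintenance DNA methylation, were higher, by 1.47 and 1.03, as was CDCA7, by 1.33 ± 0.28 (adjusted p 0.0012). Against sox10-NC, MS5-NC was lower for CDCA7 (-2.40), RFC3 (-1.68) and CDT1 (-1.39).

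Of 41 other G2 and mitosis genes tested (43 listed), 16 were lower and 0 higher in NPC-NC against LSB, 11 lower and 1 higher in MS5-NC, and 14 lower and 1 higher in sox10-NC, with medians of -0.53, -0.41 and -0.50. In either direction 39%, 29.3% and 36.6% of the list were called, against 28.7%, 38.7% and 33.6% of all genes. Over all genes 11.9%, 17.6% and 16.7% were lower. In MS5-NC the median of -0.41 was lower than the -0.17 of the mitotic members, of which 1 of 21 was called lower. The split between phases seen in the member calls was thus less sharp in the wider lists. Without NPC-NC array 1 the NPC-NC count was 24 lower and 0 higher. Array 1 was the highest NPC-NC array for 38 of the 41, so a shift to lower levels without it follows by construction. HMMR, a spindle and hyaluronan binding protein, was lower by -1.41 ± 0.25 in NPC-NC (adjusted p 0.00044), -1.43 ± 0.25 in MS5-NC (adjusted p 0.00026) and -1.35 ± 0.25 in sox10-NC (adjusted p 0.00046). TTK, the checkpoint kinase MPS1, was lower by -1.15 in NPC-NC and -1.23 in MS5-NC, and SPC25, of the NDC80 kinetochore complex, by -1.13 in NPC-NC and -1.46 in sox10-NC. HMGB2, a chromatin protein, was lower by -1.38 in sox10-NC.

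**Figure D5:**
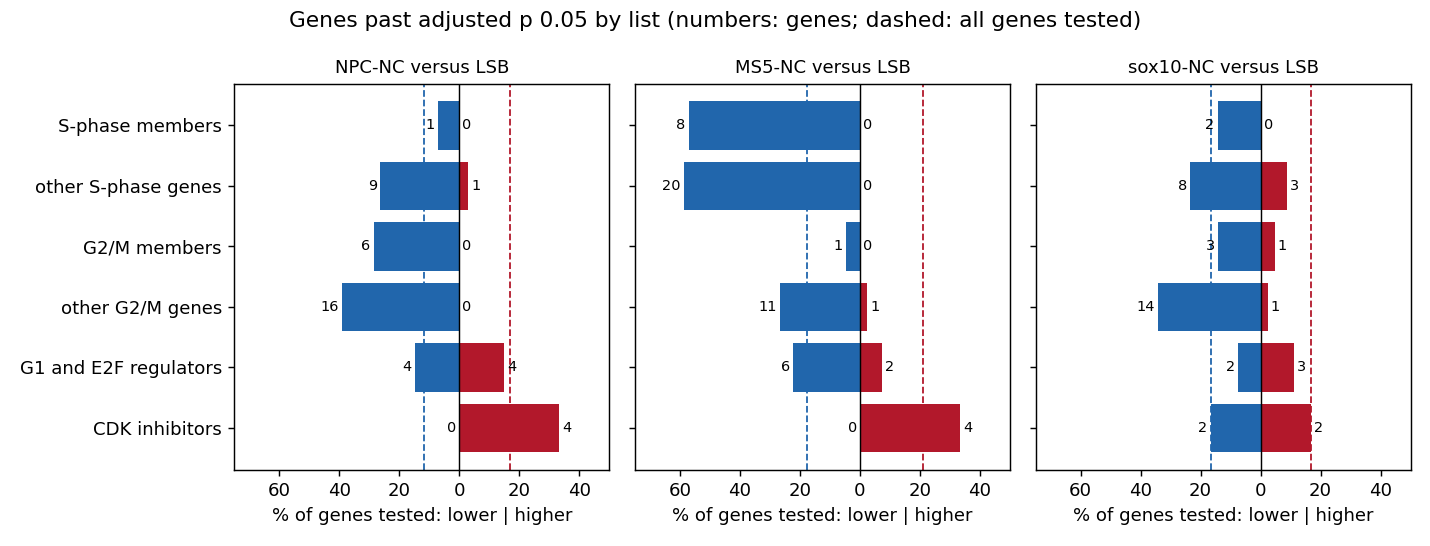
Share of each list called lower (blue, left) and higher (red, right) than LSB at an adjusted p under 0.05, with the number of genes at each bar and dashed lines for all genes tested. The S-phase bars are longest in MS5-NC, where 8 members and 20 other S-phase genes were lower. Of the 12 CDK inhibitors and antiproliferative genes, 4 were higher in NPC-NC and 4 in MS5-NC, and 2 were higher and 2 lower in sox10-NC.

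Some genes that hold cells out of the cycle were higher than LSB, with BTG1 and GADD45G higher in all 3 groups. Of 12 CDK inhibitors and antiproliferative genes tested (16 listed), 4 were higher and 0 lower in NPC-NC and likewise in MS5-NC against LSB, and 2 were higher and 2 lower in sox10-NC. Over all genes, 16.8%, 21.1% and 16.9% were higher in NPC-NC, MS5-NC and sox10-NC, and the medians of the list were -0.11, 0.10 and 0.18. In either direction 33.3% of the list was called in each group, against 28.7%, 38.7% and 33.6% of all genes. The list was thus called about as often as genes at large. CDKN1C, which encodes the CDK inhibitor p57, had log2 levels of 9.76 ± 0.24 in NPC-NC, 9.77 ± 0.47 in MS5-NC and 7.68 ± 0.81 in sox10-NC, against 7.57 ± 0.28 in LSB (SD, n = 3). It was higher than LSB by 2.19 ± 0.33 in NPC-NC (adjusted p 0.00011) and 2.20 ± 0.33 in MS5-NC (adjusted p 6.8e-05). CDKN2D, an inhibitor of CDK4 and CDK6, was higher by 1.83 ± 0.46 in NPC-NC (adjusted p 0.0065) and 2.76 ± 0.46 in MS5-NC (adjusted p 0.00017), with a wide spread over the NPC-NC arrays (SD 1.09). BTG1, an antiproliferative gene, was higher in all 3 groups, by 1.00, 1.08 and 1.39. GADD45G, a growth arrest gene, had 7.48 ± 0.23 in NPC-NC, 7.88 ± 0.16 in MS5-NC and 8.06 ± 0.50 in sox10-NC, against 4.82 ± 0.37 in LSB, where 1 of 3 arrays detected it, and its changes were 2.66, 3.06 and 3.24 (adjusted p 1.8e-06, 2e-07 and 4.7e-08). CDKN1A, which encodes p21, was lower in sox10-NC by -1.07 ± 0.35 (adjusted p 0.024). Against sox10-NC, CDKN1C, CDKN2D and CDKN1A were higher in NPC-NC, by 2.08, 1.44 and 1.00, and in MS5-NC, by 2.10, 2.36 and 1.95; without NPC-NC array 1, the number of this list higher in NPC-NC against sox10-NC was 1 in place of 3.

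The G1 cyclins, their kinases and the E2F, Myb and Myc regulators were mixed: of 27 tested (28 listed), 4 were higher and 4 lower in NPC-NC against LSB, 2 and 6 in MS5-NC, and 3 and 2 in sox10-NC. These are 29.6%, 29.6% and 18.5% of the list, against 28.7%, 38.7% and 33.6% of all genes. The list was thus called about as often as genes at large in NPC-NC and less often in MS5-NC and sox10-NC. TFDP2, a dimer partner of E2F factors, was lower in all 3 groups, by -1.57, -1.37 and -1.22 in NPC-NC, MS5-NC and sox10-NC. CDK4, the G1 kinase, was lower in MS5-NC by -1.71 ± 0.24 (adjusted p 3e-05), as were CCNE1, cyclin E1, by -1.18 ± 0.25 and CDC25A, a phosphatase that activates CDKs, by -1.04. CDK6, the companion of CDK4, was higher in NPC-NC by 1.20 ± 0.25 (adjusted p 0.0014). MYCN, a Myc factor of neural crest and neural progenitors, was higher in sox10-NC by 1.71 ± 0.28 (adjusted p 0.00015), and both NPC-NC (-1.30) and MS5-NC (-1.40) were lower than sox10-NC for it. E2F7, a repressor, and E2F2, an activator, were higher in NPC-NC than in sox10-NC by 1.28 and 1.16.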

How the data were processed

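Total RNA of 12 cell samples was hybridised to Illumina HT-12 arrays. The deposited table gives, per the file headers, a mean signal intensity, a detection p-value and a number of beads for each of 47322 probes, as exported by GenomeStudio per the submitters' processing notes; 12 further columns, bead standard errors, were left unused. A second deposited table holds processed values, made by the authors in a way not given in the sources used here. It ranks probes as the intensity does, and column medians are 7.54 to 7.58. On each array 28.2% to 28.3% of these values were at or below 0. They were treated as unlogged: for the alternative that used them, values under 16 were set to 16 before the log2 step. Median intensity per array was 93.4 to 114, and the number of arrays limits the precision.

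Intensities were background corrected from the detection p-values, quantile normalised and log2 transformed with an offset of 16 (neqc, limma 3.58.1, R 4.3.3). Probes with detection p under 0.01 on at least 3 of 12 arrays were kept (18427), named from the platform annotation (30113 probes with 1 gene symbol, 30074 of them matched to a current RefSeq gene, 8 with several, 17201 with none), and the brightest probe stood for a gene. A single linear model of 4 groups was fitted with lmFit and eBayes, and tested on simulated data. The labels call replicates biological and do not say how they were separated, so p-values measure only the spread between these samples. All members may be named; per-array values are given for 9 fixed members and for up to 3 called genes per phase and comparison with the smallest adjusted p; other genes are named from calls of at least 2-fold, at most 4 per direction, list and comparison, apart from SOX10 and DCX and a few named beside a member. Members and lists were chosen with earlier results of these data known. Alternatives changed the normalisation, offset, filter, probe rule, arrays in the fit, weights, the replicate block, the fold threshold, and left out each array.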

Additional observations from a re-analysis of the deposited data

How the results depend on the processing

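Over 22 alternatives no called gene reversed. The calls of GMNN and E2F1 in MS5-NC against LSB, CENPF in sox10-NC against LSB and MCM5 in MS5-NC against sox10-NC held in each. Counts of members called rested on single arrays: leaving out 1 array at a time gave 1 to 12 calls in NPC-NC against LSB, 4 to 12 in MS5-NC against LSB, 2 to 9 in sox10-NC against LSB, 0 to 5 in NPC-NC against sox10-NC, 2 to 7 in MS5-NC against sox10-NC and 0 in NPC-NC against MS5-NC. In MS5-NC against LSB, without MS5-NC array 3 there were 4 and without LSB array 2 or 3 there were 5; in sox10-NC against LSB, without LSB array 2 there were 2. For NPC-NC against LSB the count was 3 with no filter on detection and 12 with array weights. For NPC-NC against sox10-NC it was 1 with array weights and 1 with quantile normalisation without background correction. Asking for at least 2-fold as well left 0 in NPC-NC against LSB, 2 in MS5-NC against LSB, 3 in sox10-NC against LSB and 2 in MS5-NC against sox10-NC. The cause of these changes was not tested, apart from the fold threshold, which by construction removes smaller changes. With the replicate block, which treats equal replicate numbers as pairs, the counts were 6, 11 and 5 against LSB in NPC-NC, MS5-NC and sox10-NC, 0 in NPC-NC against MS5-NC, 1 in NPC-NC against sox10-NC and 6 in MS5-NC against sox10-NC; same-numbered arrays correlated at r = -0.09 to 0.18 in their deviations, over 0.1 for 2 of 18 pairs, so the numbers were not taken as pairs. The other lists were recomputed only without NPC-NC array 1, an alternative chosen after seeing the data. Genes called over the whole table in NPC-NC against MS5-NC ranged from 3 to 33, and in NPC-NC against LSB from 2073 to 3505 as arrays were left out. A slide block was not run, since the headers name no slide. Signal near background limits MKI67, E2F1 and CDC6, and CCNE2 had no usable signal.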
